A study of Mus musculus with 10 samples.

Results

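Messenger RNA of 10 dendritic cell subset genes was examined in 10 mouse tumors. The genes were taken as a list of symbols and all 10 were found among the 29890 genes of the expression table. They comprise Xcr1, Clec9a, Batf3 and Irf8 for the cross-presenting type 1 conventional dendritic cell (cDC1), Flt3 and Zbtb46 for both conventional subsets, Cd209a for the type 2 subset (cDC2), Ccr7 and Fscn1 for mature migratory dendritic cells, and Siglech for plasmacytoid dendritic cells (pDC). The tumors grew under the skin of female C57BL/6J mice aged 7 to 8 weeks at injection after injection of the mouse melanoma line B2905-M4. In 5 tumors the implanted cells overexpressed Adamts7, whose product is a metalloproteinase secreted into the matrix, and in the 5 control tumors they carried a vector; no tumor received immunotherapy. Harvest was at day 35 for 2 Adamts7 tumors, day 45 for 3 tumors of each group and day 50 for 2 vector tumors, and the labels tie no day to a tumor. Harvest day and genotype therefore cannot be told apart. Whether the overexpressing cells were 1 clone or a pool, and which promoter drove Adamts7, were not given in the sources used here.

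Dendritic cells take up antigen in tissue, mature, migrate to lymph nodes and present the antigen to T cells. The cDC1 lineage depends on the transcription factors Irf8 and Batf3 and presents antigen from dead cells to CD8 T cells, cDC2 mainly prime CD4 T cells, and pDC secrete type I interferon. In tumors, NK and T cells release XCL1 and FLT3L, which attract cDC1 through XCR1 and sustain dendritic cells through FLT3.

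All values are TPM, an abundance per transcript length scaled within each library, from whole tumors with 1 library each. TPM keeps no depth, so the read depth behind each value is unknown and no counting interval can be given. In a bulk sample, fewer cells of a type and less RNA per cell cannot be told apart. The p-values measure the spread between these tumors.

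Adamts7 RNA did not fully separate the labelled groups. Vector tumors 1, 2 and 4 held 6.49, 6.98 and 8.57 TPM of it. Adamts7 RNA reached 88.5, 96.0, 78.2 and 74.8 TPM in tumors 1 to 4 of its group, but 18.2 TPM in the tumor labelled Adamts7 5, below vector tumors 3 (28.3 TPM) and 5 (27.6 TPM). Vector tumors 3 and 5 also stood apart from the other 8 across all genes: the first principal component held 49.7% of the variance and placed them at 103.1 and 87.2 and the rest between -50.6 and -5.6. In these 2 tumors the summed TPM of 8 melanocyte lineage genes was 313 and 1930, against 8450 to 23200 elsewhere, and that of 4 leukocyte genes (Ptprc, Laptm5, Coro1a, Cd53) was 645 and 611, against 53.7 to 320. The members, and the lists and genes that the results turn on, are therefore also given without vector tumors 3 and 5, a choice made after the data were seen.

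The 250 bases before the first annotated start of 4 genes are shown because they hold the members' lineage factors (Irf8, Batf3) and the receptors that define cDC1 (Xcr1, Clec9a). They are RefSeq sequences on build GRCm38.p6, the plus strand for Irf8 (chr8:120736108-120736357), Batf3 (chr1:191098164-191098413) and Clec9a (chr6:129408612-129408861) and the minus strand for Xcr1 (chr9:123862030-123862279), and capitals mark TTCNNNGAA, the core of STAT binding sites.
Irf8: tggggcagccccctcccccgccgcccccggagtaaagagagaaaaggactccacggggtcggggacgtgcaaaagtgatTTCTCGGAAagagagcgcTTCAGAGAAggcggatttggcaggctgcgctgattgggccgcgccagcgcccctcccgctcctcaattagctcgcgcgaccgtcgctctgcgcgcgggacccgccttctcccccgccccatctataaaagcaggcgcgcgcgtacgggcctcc
Batf3: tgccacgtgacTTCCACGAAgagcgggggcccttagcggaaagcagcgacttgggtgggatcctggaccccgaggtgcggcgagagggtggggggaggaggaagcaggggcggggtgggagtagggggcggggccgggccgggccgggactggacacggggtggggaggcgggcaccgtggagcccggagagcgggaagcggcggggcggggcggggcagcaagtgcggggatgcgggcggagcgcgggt
Xcr1: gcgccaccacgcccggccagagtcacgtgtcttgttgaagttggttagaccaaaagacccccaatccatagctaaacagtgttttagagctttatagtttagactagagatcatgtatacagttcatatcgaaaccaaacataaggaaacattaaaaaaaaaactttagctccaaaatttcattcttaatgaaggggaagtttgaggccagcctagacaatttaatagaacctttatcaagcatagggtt
Clec9a: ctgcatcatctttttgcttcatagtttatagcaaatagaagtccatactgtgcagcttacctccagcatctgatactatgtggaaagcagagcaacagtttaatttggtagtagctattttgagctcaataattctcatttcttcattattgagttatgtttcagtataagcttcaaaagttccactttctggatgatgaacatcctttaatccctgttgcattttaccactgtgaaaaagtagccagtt
The Irf8 window held TTCTCGGAA, 171 to 163 bases before the start, and TTCAGAGAA, 153 to 145 bases before it. Batf3 held TTCCACGAA (239 to 231 bases before) and Siglech held TTCTCTGAA (123 to 115 bases before). This motif, which reads alike on both strands, was in 3 of the 9 members with a RefSeq entry and in 7.02% of 32851 promoter windows of the same length. On both strands, 6 further motifs were searched. A STAT6-type site with 1 more base between its ends (5.85% of all windows), the interferon-stimulated response element (2.98%), the composite element of ETS and IRF factors (2.3%) and the NF-kappaB type GGGANTTCC (1.43%) had no match in a member. The AP-1 type TGANTCA (6.75%) matched in Zbtb46 and the ETS type CTTCCGG (6.91%) in Cd209a. No matches overlapped one another. These are matches of letters in a window, not measured binding sites.

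Xcr1 and Clec9a, the receptors that define cDC1, were at 0.68 TPM or less in every Adamts7 tumor and higher on average in the vector tumors. Xcr1, the receptor for the chemokine XCL1, measured 0.46, 0.11, 0.2, 0.04 and 0.16 TPM in Adamts7 tumors 1 to 5 and 0.4, 0.44, 4.47, 2.02 and 2.49 TPM in vector tumors 1 to 5. Vector tumors 3, 4 and 5 lay above all others, while vector tumors 1 and 2 lay just under the highest Adamts7 tumor, so the groups overlapped. The means were 0.194 ± 0.160 and 1.96 ± 1.68 TPM (SD, n = 5 each), a ratio of vector to Adamts7 of 10.1. In log2(TPM + 1), where the added 1 shrinks the change of a low gene, the difference was -1.13 (SE 0.38, limma adjusted p = 0.162). Clec9a, a lectin that binds actin exposed by dead cells, was at 0.68, 0.16, 0.29, 0.32 and 0.39 TPM in the Adamts7 tumors and at 0.29, 1.36, 7.6, 1.82 and 3.25 TPM in the vector tumors. Vector tumors 2 to 5 were above every Adamts7 tumor, and vector tumor 1 was within their range. The Clec9a means differed 7.78-fold (log2 difference -1.22, SE 0.43, limma adjusted p = 0.178). Without vector tumors 3 and 5, the vector mean was 4.91 times the Adamts7 mean for Xcr1 and 3.14 times for Clec9a, and these values were 2.16 and 2.24 when vector tumor 4 was left out as well. Both genes were below the filter of a mean of 1 TPM in the fit without vector tumors 3 and 5 and had no limma test there.

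**Figure D1:**
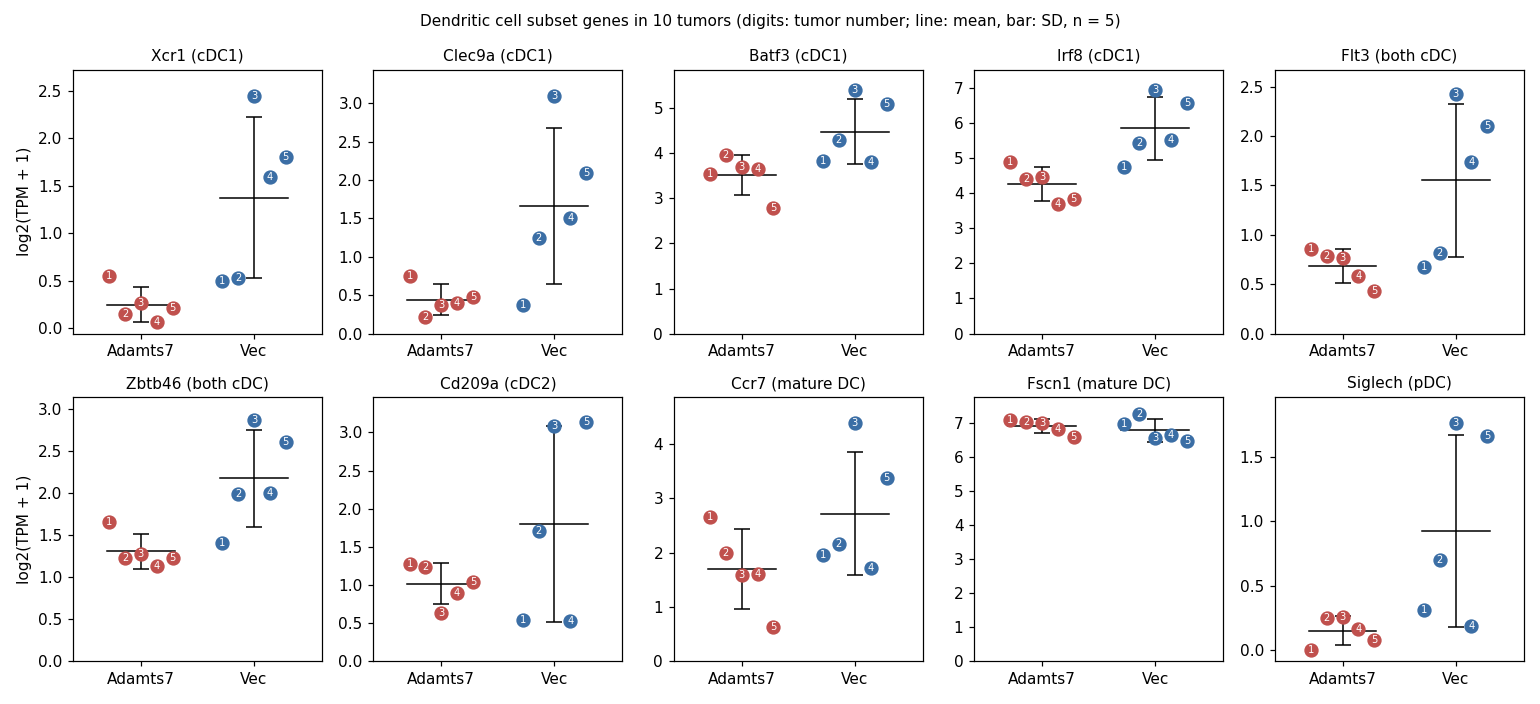
log2(TPM + 1) of the 10 subset genes in the 5 Adamts7 and 5 vector (Vec) tumors, 1 point a tumor with its number inside, a line at the mean and bars of 1 SD. Vector tumors 3 and 5 are the 2 highest in 9 panels and the 2 lowest in the Fscn1 panel, and the groups overlap in every panel.

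Batf3 and Irf8, the transcription factors that cDC1 require, were more abundant than the receptors and had smaller ratios between the groups. Batf3, an AP-1 family factor that is also made by activated T cells, was at 10.5, 14.5, 12.0, 11.5 and 5.86 TPM in the Adamts7 tumors and at 13.2, 18.7, 41.0, 12.9 and 33.2 TPM in the vector tumors. Vector tumors 1 and 4 were within the Adamts7 range, and the ratio of the means, 2.19, was 1.37 without vector tumors 3 and 5. The log2 difference was -0.96 (SE 0.34, limma adjusted p = 0.178). Irf8, an interferon regulatory factor that is also present in macrophages and B cells, was at 28.6, 20.2, 20.9, 12.0 and 13.1 TPM in the Adamts7 tumors and at 26.0, 42.3, 121, 44.7 and 94.8 TPM in the vector tumors. Only vector tumor 1 lay within the Adamts7 range, under Adamts7 tumor 1. The Irf8 difference in log2(TPM + 1) was -1.59 (SE 0.40, limma adjusted p = 0.108), and was -0.98 without vector tumors 3 and 5 (SE 0.29, limma adjusted p = 0.232, range over all alternatives 0.0474 to 0.266). Irf8 is known to be induced by interferon-gamma, and 10 of 10 genes of a list induced by that cytokine were lower in the Adamts7 tumors without overlap, against 3.78% of tested genes. The median difference of that list was -2.32, and -1.38 without vector tumors 3 and 5. Their summed level was 316 to 568 TPM in the Adamts7 tumors and 960 to 4170 TPM in the vector tumors, and their part in the Irf8 difference was not tested.

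Flt3, the growth factor receptor that dendritic cells and their precursors carry, was at 0.81, 0.73, 0.69, 0.49 and 0.35 TPM in the Adamts7 tumors and at 0.59, 0.76, 4.37, 2.33 and 3.28 TPM in the vector tumors. As with Xcr1, vector tumors 3, 4 and 5 lay above all others and vector tumors 1 and 2 did not. The means differed 3.69-fold (log2 difference -0.87, SE 0.35, limma adjusted p = 0.209). Zbtb46, a transcription factor of conventional dendritic cells that endothelial cells also make, was at 2.17, 1.35, 1.42, 1.19 and 1.35 TPM in the Adamts7 tumors and at 1.65, 2.96, 6.32, 2.99 and 5.12 TPM in the vector tumors. Vector tumors 2 to 5 were above every Adamts7 tumor, and the means differed 2.55-fold (log2 difference -0.87, SE 0.27, limma adjusted p = 0.147). The endothelial list of 7 genes, which shares no gene with the members, had a median log2 difference of -0.12 and summed levels of 47.0 to 107 TPM against 55.2 to 119 TPM. By limma 0 of the 7 were called, and 2 were lower at an unadjusted p under 0.05, beside 15.3% of all tested genes. These were Emcn (-0.81, SE 0.24) and Tek (-0.65, SE 0.28), and Tek passed the filter only through the vector group (Adamts7 mean 0.974 TPM). The endothelial part in the Zbtb46 difference was not tested. Without vector tumors 3 and 5, the ratio of the means was 2.0 for Flt3 and 1.69 for Zbtb46. For Flt3 it was 1.1 with vector tumor 4 left out too.

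Cd209a, a C-type lectin of cDC2 and of dendritic cells that arise from monocytes, followed another order among the vector tumors. Its level was 1.43, 1.37, 0.56, 0.86 and 1.05 TPM in the Adamts7 tumors and 0.45, 2.27, 7.45, 0.44 and 7.77 TPM in the vector tumors. Vector tumors 1 and 4 had the 2 lowest values of all 10 tumors, and vector tumors 3 and 5 the 2 highest. The ratio of the means was 3.49 (log2 difference -0.78, SE 0.53, limma adjusted p = 0.407). Without vector tumors 3 and 5 the ratio was 0.999 and the log2 difference was 0.10, so the direction of Cd209a rested on those 2 tumors. RSEM divides reads that match more than 1 of the related Cd209 genes by estimate, so these values carry an uncertainty that was not measured.

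Ccr7, the chemokine receptor that guides mature dendritic cells and naive T cells to lymph nodes, was at 5.32, 3.01, 1.99, 2.03 and 0.56 TPM in the Adamts7 tumors and at 2.9, 3.45, 19.9, 2.28 and 9.37 TPM in the vector tumors. Vector tumors 1, 2 and 4 were within the Adamts7 range. The ratio of the means was 2.94 (log2 difference -1.02, SE 0.54, limma adjusted p = 0.302) and 1.11 without vector tumors 3 and 5. Fscn1, the actin-bundling protein fascin, which many tumor and stromal cells also make, was the most abundant member and the only one with a higher Adamts7 mean. Its levels were 137, 129, 126, 111 and 95.6 TPM in the Adamts7 tumors and 125, 154, 93.5, 99.0 and 86.8 TPM in the vector tumors (log2 difference 0.12, SE 0.17, limma adjusted p = 0.696). Vector tumors 3 and 5, the highest for Ccr7, were the lowest for Fscn1. The ratio of Fscn1 to Ccr7 was 4.7 and 9.26 in these 2 tumors, 43.1 to 44.5 in the other vector tumors and 25.7 to 171 in the Adamts7 tumors.

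Siglech, a sialic acid binding receptor of pDC and of some macrophages and microglia, was at 0, 0.19, 0.2, 0.12 and 0.06 TPM in the Adamts7 tumors and at 0.24, 0.63, 2.39, 0.14 and 2.17 TPM in the vector tumors. Vector tumor 4 was within the Adamts7 range and the other 4 were above it. Its mean over all tumors, 0.614 TPM, was below the filter, so it was compared alone. The difference in mean log2(TPM + 1) was -0.77 (two-sided exact permutation test, 5 tumors against 5, p = 0.0317 without adjustment, smallest possible 0.00794). Without vector tumors 3 and 5 the difference was -0.25.

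Over the members, 9 of 10 had a lower mean log2 level in the Adamts7 tumors, against 60.2% of tested genes, and none passed limma's adjusted threshold of 0.05. Of the 9 members tested, 0 were called lower, against 30 of 15276 genes (0.196%), and 0 higher, against 4 genes (0.0262%), so 34 of all tested genes (0.223%) were called in either direction. At an unadjusted p under 0.05, 6 of the 9 were lower (Xcr1, Clec9a, Batf3, Irf8, Flt3 and Zbtb46), and so were 15.3% of all tested genes. Xcr1, Clec9a and Flt3 passed the filter only through the vector group, their Adamts7 means being 0.194, 0.368 and 0.614 TPM, so this count supports nothing about the members. When limma weighted the tumors by their quality (array weights), 1 member, Irf8, was called lower (-1.10, SE 0.30, adjusted p = 0.0474, range over all alternatives 0.0474 to 0.266), against 6.26% of all tested genes. The groups overlapped for all 10 members, while 4.89% of tested genes had none in either direction. The median difference over the 10 members was -0.91 against -0.10 over all tested genes, and it was -0.42 without vector tumors 3 and 5 and -0.30 with the tumor labelled Adamts7 5 removed as well. In either fit Xcr1, Clec9a, Flt3 and Siglech were below the filter, and 0 of the 6 members tested were called. Of all genes, 33 of 14878 were called in the first fit and 914 of 14904 in the second. With 6 tested, 0 calls cannot tell the members from all genes.

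The authors' deposited table, a DESeq2 comparison per the submitters' processing notes, called 6 of the 10 members lower and 0 higher at an adjusted p under 0.05, against 5.48% lower and 2.48% higher (7.96% in all) of its 18796 genes with an adjusted p. In the authors' deposited table Xcr1 had a log2 fold change of -3.23 (SE 0.71, adjusted p = 0.000523) and Clec9a one of -2.86 (SE 0.68, adjusted p = 0.00175). The authors' deposited table gave Siglech -3.21 (SE 0.98, adjusted p = 0.0219), Flt3 -1.77 (SE 0.53, adjusted p = 0.0183), Irf8 -1.68 (SE 0.41, adjusted p = 0.00205) and Zbtb46 -1.23 (SE 0.35, adjusted p = 0.0106). Not called in the authors' deposited table were Batf3 (SE 0.39, adjusted p = 0.0871), Ccr7 (-1.45, adjusted p = 0.151), Cd209a (-1.66, adjusted p = 0.154) and Fscn1 (0.21, adjusted p = 0.534). In the authors' deposited table the fold changes of Cd209a and Ccr7 were thus of the size of called members, with larger SEs of 0.75 and 0.65, and no split by subset can be read from the calls. The table and limma rest on the same 10 tumors and differ in scale, so a low gene such as Xcr1 has a wider fold change in the table.

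**Figure D2:**
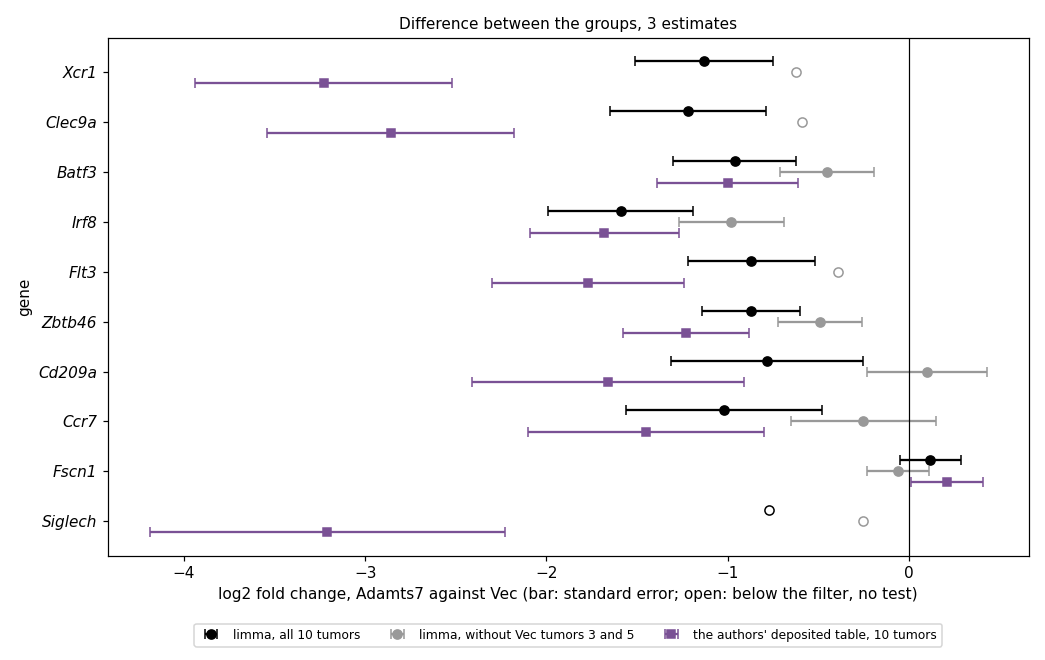
Log2 fold change of Adamts7 against vector tumors for each member, with bars of 1 SE, from limma over all 10 tumors, from limma without vector tumors 3 and 5 and from the authors' deposited table; open symbols are genes below the filter, with no test. Xcr1 runs from -0.62 to -3.23 over the 3 estimates, and Cd209a and Fscn1 lie on both sides of 0.

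Order among the members could be read within tumors, since TPM is scaled per transcript length. Mean levels over the 10 tumors ran from Fscn1 (116 TPM) through Irf8 (42.4 TPM), Batf3 (17.3 TPM), Ccr7 (5.08 TPM), Zbtb46 (2.65 TPM), Cd209a (2.36 TPM), Clec9a (1.62 TPM), Flt3 (1.44 TPM) and Xcr1 (1.08 TPM) to Siglech (0.614 TPM). Irf8 was above Batf3, and Batf3 above Ccr7, in 10 of 10 tumors. Fscn1 was above Irf8 in 8 of 10, the exceptions being vector tumors 3 and 5. Clec9a had a higher mean than Flt3 but was above it in only 3 of 10 tumors, and Zbtb46 was above Cd209a in 7 and Xcr1 above Siglech in 6, so these neighbours did not differ beyond their spread.

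Vector tumors 3 and 5 were the 2 highest of the 10 tumors for 9 of 10 members, against 24.1% of tested genes. Vector tumor 4 ranked differently from member to member. It was above the other 7 tumors for 5 of 10 members (Xcr1, Clec9a, Irf8, Flt3 and Zbtb46), against 17.3% of tested genes, while it ranked the 10th of 10 for Cd209a, 7th for Ccr7 and Siglech and 6th for Batf3. Its ratio of Xcr1 to Cd209a was 4.59 and of Clec9a to Cd209a 4.14, the highest of any tumor. The same tumor was above the other 7 for 6 of 13 further cDC1 genes (Itgae, Ifi205, Rab7b, Gpr33, Gcsam, Tlr11). Of these, Gpr33, Gcsam and Tlr11 were below the filter, while the 17.3% covers tested genes only. Rab7b was at 8.98 to 18.9 TPM, against at most 4.47 TPM for Xcr1, and which cells made these 6 genes was not tested. The count was 0 of 9 further cDC2 genes, 0 of 10 macrophage genes and 0 of 4 leukocyte genes. It was 4 of 23 further mature dendritic cell genes and 3 of 15 further pDC genes. For further transcription factors it was 3 of 15, and for T cell genes 1 of 7. Vector tumor 4 was likewise above the other 7 for 10 of 10 genes induced by interferon-gamma, 4 of 8 dendritic cell ligands and 2 of 5 NK cell genes. This pattern of 1 tumor was noticed in the data and has no replicate.

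**Figure D3:**
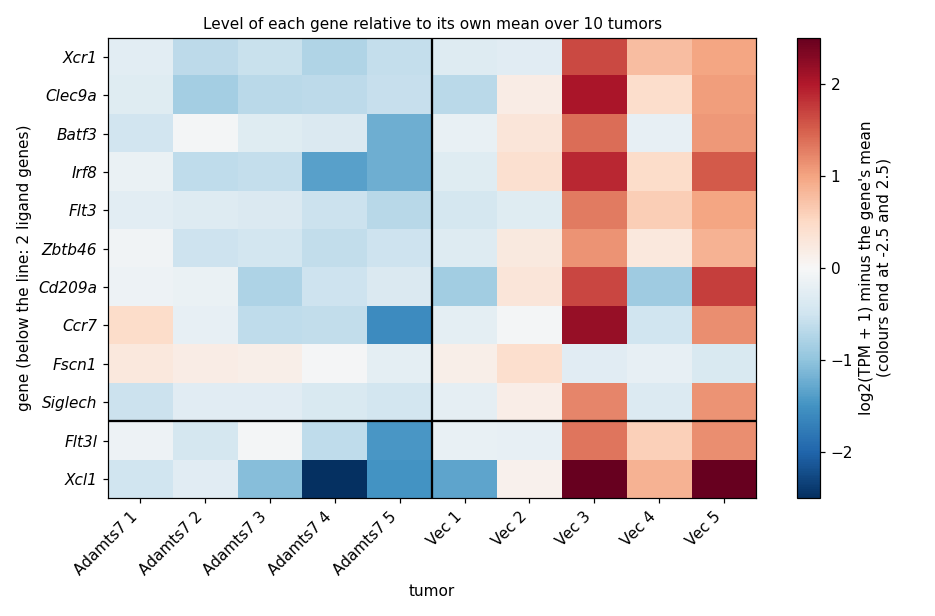
Level of the 10 members and, below the line, of Flt3l and Xcl1 in each tumor, as log2(TPM + 1) minus the gene's own mean over the 10 tumors, with colours ending at -2.5 and 2.5. Vector tumors 3 and 5 are red in every member but Fscn1, and vector tumor 4 is red for Xcr1, Clec9a, Irf8, Flt3 and Zbtb46 and blue for Batf3, Cd209a, Ccr7 and Siglech.

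Ligands and growth factors of dendritic cells were lower on average in the Adamts7 tumors, and none passed the test. Of 8 listed genes 6 were tested, 0 were called by limma (3 at an unadjusted p under 0.05, all lower, beside 15.3% of all tested genes), and all 8 had a negative log2 difference, with a median of -1.21 that was -0.29 without vector tumors 3 and 5. Flt3l, the ligand of Flt3, was at 11.7, 9.18, 12.4, 7.94 and 4.04 TPM in the Adamts7 tumors and at 11.2, 11.1, 34.2, 20.1 and 30.2 TPM in the vector tumors (log2 difference -1.09, SE 0.37, limma adjusted p = 0.165). Xcl1, the ligand of Xcr1, was at 7.21, 8.61, 4.6, 0.44 and 3.12 TPM against 3.64, 11.6, 120, 20.4 and 114 TPM (log2 difference -2.54, SE 0.90, limma adjusted p = 0.178). The differences were -0.62 for Flt3l and -1.16 for Xcl1 without vector tumors 3 and 5. For both ligands, as for their receptors, vector tumors 3, 4 and 5 were the 3 highest and vector tumors 1 and 2 lay within or near the Adamts7 range. The same 3 tumors were highest for Clec9a, Irf8 and Zbtb46 and for 10 of 10 genes induced by interferon-gamma. This order was therefore not particular to ligands and their receptors. Ccl4, an inflammatory chemokine, differed by -1.56 (SE 0.70, limma adjusted p = 0.245). Ccl21a, a ligand of Ccr7, was at most 0.47 TPM in the Adamts7 tumors and at 0, 3.78, 0, 48.3 and 397 TPM in the vector tumors (limma adjusted p = 0.268), and its near-identical copies make the value uncertain. Ccl21a was thus listed at 0 in vector tumor 3, where Ccr7 was highest. In the authors' deposited table, 4 of the 8 were lower, namely Xcl1, Ccl3, Ccl4 and Ccl21a, beside 5.48% of all its genes.

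**Figure D4:**
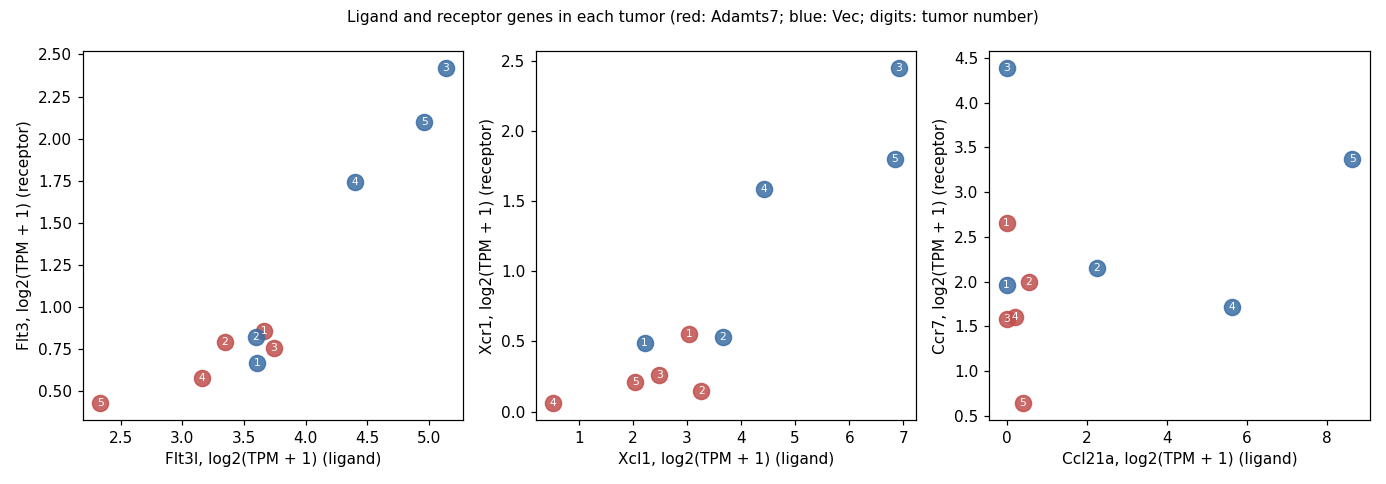
log2(TPM + 1) of a receptor gene against that of its ligand gene in each tumor, Adamts7 in red and vector in blue, with the tumor number inside the point. Vector tumors 3, 4 and 5 lie at the upper right for Flt3l with Flt3 and for Xcl1 with Xcr1, while for Ccl21a with Ccr7 vector tumor 3 has the highest receptor and the ligand at 0.

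The further genes of each subset were described by 5 lists beside the ligands, and 4 genes stand in more than 1 list. Among 13 cDC1 genes, 12 had a negative difference, with a median of -0.68 (-0.39 without vector tumors 3 and 5), and limma called 0 of the 10 tested (5 at an unadjusted p under 0.05, 4 of them lower, beside 20.2% of all tested genes in either direction and 15.3% lower). The 4 with the smallest p were Itgae, the CD103 integrin chain (-1.05, SE 0.41), Naaa, a lysosomal amidase (-1.29, SE 0.50), Ifi205 (-1.85, SE 0.72) and Snx22 (0.79, SE 0.32), with limma adjusted p-values of 0.198 to 0.209. The authors' deposited table had 4 of the 13 lower, namely Itgae, Ifi205, Gcsam and Tlr11, beside 5.48% of all its genes. Among 9 cDC2 genes the median was -0.42 (-0.03 without vector tumors 3 and 5), and limma called 0 of the 8 tested, with 0 at an unadjusted p under 0.05. The integrin gene Itgax had the smallest p (-1.06, SE 0.54, limma adjusted p = 0.295), followed by Sirpa (-0.57), Klf4 (-0.63) and Clec10a (-0.41), and the authors' deposited table called 0 of 8 lower.

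Mature dendritic cell genes gave a median of -1.13 over 23 genes, of which 22 had a negative difference and 13 an unadjusted p under 0.05, all lower, beside 15.3% of all tested genes. Of these 13, Apol7c and Il12b passed the filter only through the vector group. Their Adamts7 means were 0.216 and 0.43 TPM, so they cannot be counted in support. Serpinb6b, a serine protease inhibitor, was the 1 gene of the list that limma called. It was at 3.33, 1.55, 1.89, 1.54 and 1.63 TPM in the Adamts7 tumors and at 6.44, 6.25, 19.5, 9.99 and 13.2 TPM in the vector tumors, with no overlap, and fell by 1.93 on the log2 scale (SE 0.30, limma adjusted p = 0.0339). The call was lost without vector tumors 3 and 5 (-1.52, SE 0.25, limma adjusted p = 0.0541, range over 21 alternatives 0.00785 to 0.142). Cd200 (-1.09, SE 0.32), the checkpoint ligand gene Cd274 (-1.33, SE 0.40) and the signalling inhibitor gene Socs2 (-0.72, SE 0.25) came next, with limma adjusted p-values of 0.133, 0.138 and 0.174. Cd200 was at 139 to 450 TPM against 310 to 708 TPM, above Ptprc (at most 103 TPM) in every tumor. Which cells made it was not tested. The list's median was -0.26 without vector tumors 3 and 5, which were the 2 highest tumors for 21 of its 23 genes. In the authors' deposited table, lower levels were called for 10 of the 23, beside 5.48% of all its genes, among them the costimulatory receptor gene Cd40 and the interleukin-12 subunit gene Il12b, 2 examples chosen after the values were seen.

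Of 15 further pDC genes, 13 had a negative difference, with a median of -0.53 (-0.15 without vector tumors 3 and 5), and limma called 0 of the 10 tested (6 at an unadjusted p under 0.05, 5 of them lower, beside 20.2% and 15.3% of all tested genes). Of the 5 lower genes, Ly6d, Spib and Cox6a2 passed the filter only through the vector group. Their Adamts7 means were 0.394, 0.248 and 0.512 TPM, so this count supports nothing about the list. Ly6d, a surface protein of lymphoid and pDC precursors, was at 0.24 to 0.46 TPM in the Adamts7 tumors and at 1.52 TPM or more in every vector tumor, highest in vector tumor 5. These groups did not overlap (-1.66, SE 0.44, limma adjusted p = 0.113), and without vector tumors 3 and 5 Ly6d was below the filter. Bst2, the antiviral protein tetherin, differed by -0.78 (limma adjusted p = 0.155), Cox6a2 by -0.97 (0.199) and the transcription factor gene Runx2 by 0.48 (0.210). Bst2 was at 320 to 636 TPM against 541 to 1120 TPM, also above Ptprc in every tumor. The cells that made it were not tested. The authors' deposited table had 3 of 14 lower, namely Ly6d, Ccr9 and Spib, beside 5.48% of all its genes.

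Of 15 further transcription factors of dendritic cells, Batf2, a relative of Batf3, was the 1 gene called by limma. It was at 28.7, 28.7, 36.7, 27.0 and 14.9 TPM in the Adamts7 tumors and at 53.2, 65.6, 94.5, 75.6 and 75.9 TPM in the vector tumors, without overlap, and fell by 1.42 on the log2 scale (SE 0.23, limma adjusted p = 0.0405). This call too was lost without vector tumors 3 and 5 (-1.26, SE 0.26, limma adjusted p = 0.102, range over 21 alternatives 0.00844 to 0.138). Batf2 was above Ptprc in every tumor but vector tumors 3 and 5, and which cells made Batf2 was not tested. Irf1, an interferon-induced factor, also had no overlap (-1.64, SE 0.36, limma adjusted p = 0.0840, and -1.06 without vector tumors 3 and 5), and Bcl6 (-0.82, adjusted p = 0.113 by limma) and Ikzf1 (-1.47, adjusted p = 0.142 by limma) followed. The list's median was -0.44, and -0.08 without vector tumors 3 and 5. The authors' deposited table had 5 of the 15 lower and Jun higher, beside 5.48% lower and 2.48% higher of all its genes. The vector tumors thus held more Batf2 in every case, whereas Batf3 overlapped between the groups.

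Several members were also set against leukocyte RNA, as TPM per 1000 TPM of the 4 leukocyte genes, a measure added after the data were seen. Xcr1 was then at 1.44, 0.533, 1.18, 0.361 and 2.98 in the Adamts7 tumors and at 2.31, 2.52, 6.93, 11.9 and 4.08 in the vector tumors. The tumor labelled Adamts7 5 lay above vector tumors 1 and 2, and the other 4 Adamts7 tumors lay below every vector tumor. Flt3 was at 2.53, 3.53, 4.08, 4.42 and 6.52 against 3.4, 4.36, 6.77, 13.7 and 5.37, with vector tumor 4 highest as for Xcr1. Cd209a was at 4.47, 6.63, 3.31, 7.76 and 19.6 in the Adamts7 tumors, against 2.6 and 2.58 in vector tumors 1 and 4 and 11.5 and 12.7 in vector tumors 3 and 5, with vector tumor 2 just above these. The highest value was in the tumor labelled Adamts7 5, and the other Adamts7 tumors reached at most 7.76, below vector tumors 2, 3 and 5. Ccr7 ranged from 10.4 to 18.3 against 13.4 to 30.9, and Irf8 from 89.5 to 244 against 150 to 262. All members overlapped on this measure. Without the tumor labelled Adamts7 5, whose Irf8 value was the 244, the Adamts7 tumors reached 124 for Irf8 and 1.44 for Xcr1. These 2 members, alone of the 10, then no longer overlapped. Ptprc, itself 1 of the 4 genes in the sum, was at 53.8 to 75.2 in the same Adamts7 tumors, below every vector tumor. The loss of overlap was thus not confined to the members. Whether Irf8 and Xcr1 differed beyond leukocyte RNA was not tested. As a difference of log2(TPM + 1) from the mean of the same 4 genes, the measure chosen first, Irf8 averaged -0.56 ± 0.42 in the Adamts7 and -0.09 ± 0.39 in the vector tumors (SD, n = 5 each). On that scale Xcr1 averaged -4.57 ± 0.71 and -4.56 ± 0.64, and Flt3 averaged -4.13 ± 0.65 and -4.39 ± 0.61, the reverse order, all within the spread. Genes near 0 TPM have little range on that scale.

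**Figure D5:**
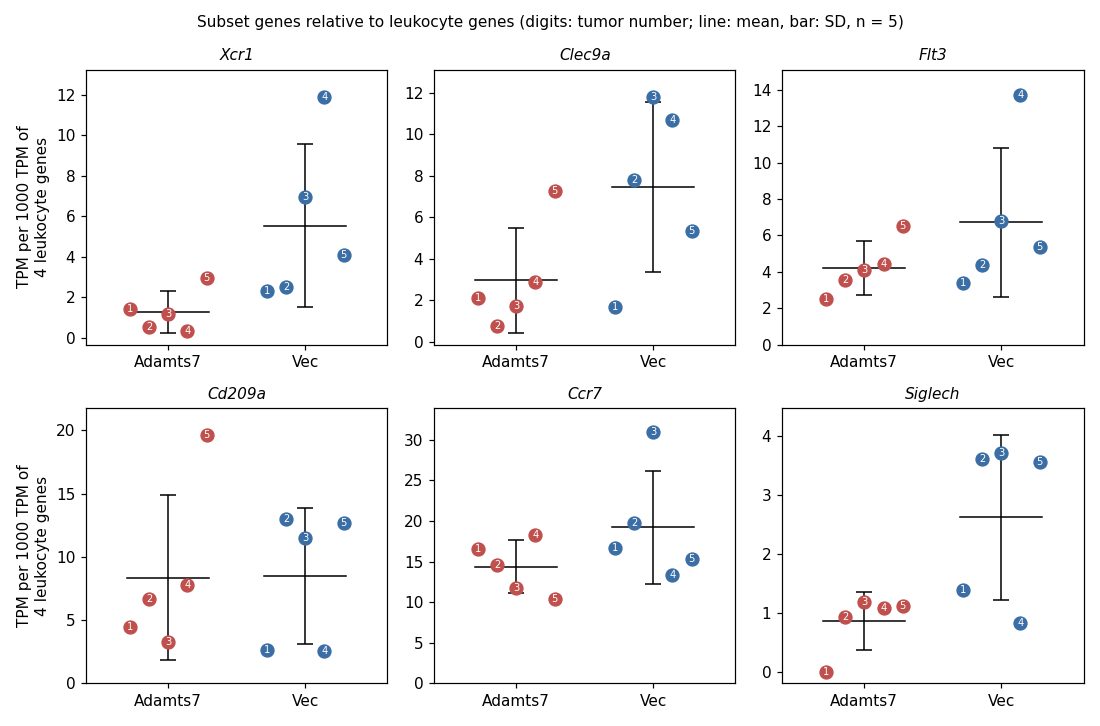
TPM of 6 members per 1000 TPM of the summed leukocyte genes Ptprc, Laptm5, Coro1a and Cd53, 1 point a tumor with its number inside, a line at the mean and bars of 1 SD. Vector tumor 4 is highest for Xcr1 (11.9) and Flt3 (13.7) and among the lowest for Cd209a (2.58), and the tumor labelled Adamts7 5 is highest for Cd209a (19.6).

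Markers of other immune cells are given beside the members. The summed level of 10 macrophage genes was 430 to 2030 TPM in the Adamts7 tumors and 816 to 3230 TPM in the vector tumors, with 3230 and 2890 TPM in vector tumors 3 and 5, and limma called 0 of the 10 (0 at an unadjusted p under 0.05). The macrophage median was -0.71, and 0.07 without vector tumors 3 and 5. For 7 T cell genes the sum was 12.5 to 33.2 TPM against 33.0 to 289 TPM, with a median log2 difference of -1.67 that was -0.64 without vector tumors 3 and 5. NK cell genes had a median of -1.47, and -0.67 without those tumors. By limma, 0 genes of either list were called. At an unadjusted p under 0.05, 7 of 7 and 4 of 5 were lower, beside 15.3% of all tested genes. The NK cell gene Ncr1 passed the filter only through the vector group (Adamts7 mean 0.348 TPM), so it cannot be counted in support. In the authors' deposited table, 6 of 7 T cell, 5 of 5 NK cell and 4 of 5 B cell genes were lower. That table called 0 of 10 macrophage genes lower, and 5.48% of all its genes. The medians were -0.18 for 4 mast cell genes and -0.1 for 5 neutrophil genes. The B cell sum reached 36.6 TPM in vector tumor 5, where the 4 lymph node genes summed to 6.58 TPM against at most 0.78 TPM in the other tumors. Keratinocyte genes were at most 0.15 TPM in sum. Of the neutrophil genes, Cxcr2 was at most 0.19 TPM, while Csf3r was at 0.85 to 3.22 TPM in the Adamts7 tumors and 1.73 to 15.4 TPM in the vector tumors and was lower in the authors' deposited table (adjusted p = 0.0305). The part of these cells in the members' values was not tested.

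By the profile over the 10 tumors, the gene nearest to Xcr1 among 15275 others was Flt3, with a root mean square difference of 0.188 in log2(TPM + 1) after each gene was centred on its mean. Ahr was also near (0.207), and Clec9a ranked the 20th. Near to Flt3 were Cd9 (0.180) and Cldn1 (0.183), with Xcr1 the 4th. Irf8 lay nearest to the antigen presentation genes H2-Q7 (0.163) and H2-DMa (0.170) and to Irf1 (0.209). Clec9a lay nearest to Gvin-ps4 (0.216), Il2ra (0.251) and Insl6 (0.257), and Batf3 to Gpc4 (0.178), S1pr4 (0.196) and the chemokine receptor gene Cxcr3 (0.217). Zbtb46 had Aida (0.146), Zfp366 (0.150) and 4933439C10Rik (0.153), and Ccr7 had Dock2 (0.234), B4galnt1 (0.244) and Lfng (0.255). Cd209a was nearest to Kif26b (0.191), Gm5547 (0.212) and Glce (0.237), and Fscn1 to Zfp768 (0.065), Snx8 (0.085) and Dpagt1 (0.090). Genes of small range lie near many others on this measure, and all profiles share the same 10 libraries and their scaling.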

How the data were processed

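RNA of 10 bulk tumors, 5 per group by title, was sequenced after poly(A) selection, per the labels' protocols. The authors deposited log2(TPM + 1) per gene symbol, and the submitters' processing notes name RSEM and build mm39; aligner and annotation are not given in the sources used here. These log2 values were raised back to TPM (sums 995286 to 998019). The authors' deposited comparison table holds a normalized signal averaged over tumors, a log2 fold change and its SE, a test score and p-values before and after adjustment. The deposited antigen receptor repertoire was not analysed here.

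The 15276 of 29890 genes whose mean was 1 TPM or more entered a limma fit (version 3.58.1, R 4.3.3) of log2(TPM + 1), pseudocount 1, trended prior variance, group as the only term, Benjamini-Hochberg at 0.05. The fit was tested on simulated data. Python 3.11.15 and pandas 2.3.3 joined the tables. Members and lists were chosen with earlier results of these data known. Named genes are the 10 members, the 4 tested genes of smallest limma p in each dendritic cell list, and the 3 genes nearest each tested member, of which 1 is not reported here. Same-numbered tumors did not deviate together (correlations -0.278 to 0.262), so no pairing was used. No tumors were identical. Alternatives were other pseudocounts, filters, scalings, variance models, tumor weights, a replicate block and each tumor left out; fits without vector tumors 3 and 5, and also without the tumor labelled Adamts7 5, came after the data were seen. Promoters are from RefSeq on GRCm38.p6, for 9 of 10 members (not Ccr7); files of mm39 give no coordinates here.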

Additional observations from a re-analysis of the deposited data

Results flagged for a closer look

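Zbtb46 had 1 Adamts7 tumor far from the others of its group: Adamts7 tumor 1 was at 2.17 TPM and the next at 1.42 TPM, so that the gap took 0.73 of the group's range in log2(TPM + 1), above Dixon's critical value of 0.71 for 5 tumors. In all, 20 groups (10 members in each of the 2 conditions) were examined this way, and chance singles out about 1 in 20.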

How the results depend on the processing

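The number of members called by limma was 0 of 9 (6 at an unadjusted p under 0.05) and stayed at 0 in every fit except limma array weights, which called 1, Irf8 (-1.10, SE 0.30, adjusted p = 0.0474, range over all alternatives 0.0474 to 0.266); with a tumor left out it was 0 to 0. The median over the 10 members, -0.91, ranged from -1.11 to -0.67 with a tumor left out, was -0.84 under median-of-ratios scaling and -0.75 under quantile normalization (which moved the median of all genes to -0.01 and 0.04), and was -0.30 without vector tumors 3 and 5 and the tumor labelled Adamts7 5. Directions turned for Cd209a (0.10 without vector tumors 3 and 5, 0.09 also without the tumor labelled Adamts7 5), Ccr7 (0.02 in the latter) and Fscn1 (-0.06 without vector tumors 3 and 5); the cause was not tested. With a pseudocount of 0.1 the member median was -1.37, Xcr1 went from -1.13 to -2.47, Clec9a from -1.22 to -2.15 and Siglech from -0.77 to -2.02, against -1.64 for Irf8; Siglech was -0.23 in the smallest fit.

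Of all genes, 34 were called (4 higher, 30 lower). The number was 10 with no filter (1 higher, 9 lower), 1219 with array weights (263 higher, 956 lower), 914 without vector tumors 3 and 5 and the tumor labelled Adamts7 5 (225 higher, 689 lower) and 6 to 657 with a tumor left out, 657 being without the tumor labelled Adamts7 5 and 6 to 17 without Adamts7 tumor 1, 2, 3 or 4 or vector tumor 3, 4 or 5. Both other scalings called 10 higher and 20 lower. With the replicate block, limma called 0 genes (3028 at an unadjusted p under 0.05) and 0 members, with a member median of -0.91; the tumors share only a number. Of 21 alternatives, Serpinb6b was called in 12 and Batf2 in 8. TPM keeps no depth, so counting error in each tumor is unknown for low members such as Xcr1 and Siglech. The normalized signal averaged over tumors in the authors' deposited table was 50.6 for Xcr1 and 8.27 for Siglech.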

Other observations

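Cd209f, a relative of Cd209a, was more abundant than Cd209a in every tumor, at 19.6, 26.4, 7.71, 12.4 and 5.57 TPM in the Adamts7 tumors and at 3.32 to 22.5 TPM in the vector tumors. Unlike Cd209a, its highest value was in an Adamts7 tumor, and its lowest was in vector tumor 4, where Cd209a was lowest too. The cDC2 marker gene Clec4a4 and the lectin gene Clec12b were near 0 in these tumors.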
